A study of Mus musculus with 6 samples.

Results

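The 39 Hox genes of the mouse were examined in satellite cells, which are the muscle stem cells, sorted fresh from mice with unedited PAX7 and from mice with an edited form of it. The members are all genes whose GENCODE symbol is Hoxa, Hoxb, Hoxc or Hoxd followed by a number, 39 of 54115 annotated genes, with 11 in the HoxA cluster, 10 in HoxB, 9 in HoxC and 9 in HoxD. RNA was sequenced from 3 Pax7WT and 3 Pax7KR samples, all of the C57BL/6J strain. In Pax7KR mice a lysine of PAX7 that can be acetylated is replaced by arginine. The edit was made with Cas9 in zygotes, founders were crossed to wild-type mice, and homozygous offspring were compared with wild-type littermates, all young adults. Cells were sorted from uninjured hindlimb muscles as α7-INTEGRIN+ and CD34+ and as negative for CD31, CD11b, SCA-1 and CD45, and 15 ng of RNA went into each library. The labels call each library a biological sample but do not say how many mice it came from. The edit changes the protein in every cell that expresses Pax7 from development on, so the comparison is not one of adult satellite cells alone.

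Hox genes encode homeodomain transcription factors that give cells their position along the body axis and, in the limb, along the axis from shoulder or hip to digits. They lie in 4 clusters, and within a cluster they are numbered from the 3′ end, so that low numbers are expressed towards the head and early, and high numbers towards the tail, later and more distally in the limb. Genes with the same number in different clusters descend from one ancestor and form a paralogue group. Adult muscle stem cells and fibroblasts keep part of the Hox code of the region in which they arose. PAX7 also carries a homeodomain, and sites with the letters TAAT are a usual target of homeodomains. No direct link between PAX7 acetylation and the Hox genes is assumed here. The comparison asks whether their levels differ between the genotypes.

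The homeobox is the stretch of DNA that encodes the homeodomain and the most alike part of any pair of Hox genes. Those of paralogue group 10 are shown because this group held the largest share of Hox transcripts and because reads from alike genes can be confused. Each was read from GENCODE transcripts on GRCm38, 5′ to 3′, as 180 bases or 60 codons of exon 2. Hoxc10 is given in lower case, and capitals in the other two mark bases that differ from it.
Hoxc10, chr15:102970848-102971027, + strand: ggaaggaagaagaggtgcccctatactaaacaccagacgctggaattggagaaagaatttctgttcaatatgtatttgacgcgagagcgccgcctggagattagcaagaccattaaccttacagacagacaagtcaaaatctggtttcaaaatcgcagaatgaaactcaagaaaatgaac
Hoxa10, chr6:52232554-52232733, - strand: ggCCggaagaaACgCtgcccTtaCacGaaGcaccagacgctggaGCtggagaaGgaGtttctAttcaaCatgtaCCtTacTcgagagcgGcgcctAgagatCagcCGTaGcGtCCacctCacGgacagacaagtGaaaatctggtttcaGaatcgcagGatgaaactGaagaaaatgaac
Hoxd10, chr2:74694141-74694320, + strand: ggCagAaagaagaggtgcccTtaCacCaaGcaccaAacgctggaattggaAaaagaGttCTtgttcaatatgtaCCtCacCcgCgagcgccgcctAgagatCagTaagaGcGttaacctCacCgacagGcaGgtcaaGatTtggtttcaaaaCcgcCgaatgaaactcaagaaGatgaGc
The Hoxa10 homeobox differed from that of Hoxc10 at 35 bases (80.6% identity), with a longest identical run of 14 bases, and the Hoxd10 homeobox at 31 bases (82.8% identity), with a longest run of 16. A run of 31 bases shared with another gene was found nowhere in Hoxa10. In Hoxc10, 7.34% of its 31-base words were shared, all with an annotated Hoxc5 transcript that starts within Hoxc10. The paralogues of group 10 could therefore be told apart at that word length.

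The libraries held 17822367 to 27908054 estimated reads, with 0.0408% to 0.0446% of the reads on Hox genes, or 7237 to 12010 reads per library. Pax7, the edited gene, is at chr4:139737062-139833528 and had 590, 511 and 524 TPM (a transcript level scaled to length and depth) in Pax7WT libraries 1, 2 and 3 and 515, 530 and 584 TPM in Pax7KR libraries 1, 2 and 3. The groups overlapped (log2 fold change -0.05, SE 0.08, edgeR adjusted p = 0.998), and read totals cannot show a change of a single amino acid. All 16 satellite cell markers were tested and their summed level was 6006 to 6595 TPM in Pax7WT and 6461 to 6546 TPM in Pax7KR. Of the 12 markers of fibro-adipogenic cells, another cell type with Hox expression, 5 were higher and 7 lower in Pax7KR, with sums of 771 to 862 TPM in Pax7WT and 789.5 to 954 TPM in Pax7KR. Most of that sum was Dpt (568 to 673 TPM) and Col15a1 (131 to 190 TPM), Dcn was at 24.7 to 48.1 TPM, Ly6a, which encodes SCA-1, at 12.1 to 22.4 TPM and Pdgfra, the defining receptor of these cells, at 0.356 to 0.979 TPM. All 10 smooth muscle and pericyte markers were lower in Pax7KR, with sums of 602 to 695 against 581 to 663 TPM. Of the 6 tenocyte markers, 2 were higher and 4 lower, with sums of 30.8 to 62.7 TPM in Pax7WT and 41.9 to 44.8 TPM in Pax7KR. Of the 12 endothelial markers, 11 were higher in Pax7KR and 1 lower, with sums of 129 to 169 TPM in Pax7WT and 144 to 210 TPM in Pax7KR. The 6 erythroid markers were higher in Pax7KR, with sums of 720 to 1387 against 1264 to 2055 TPM. The immune, glial and myofibre lists had members in both directions. At an unadjusted edgeR p under 0.05, 1 of the 11 tested immune markers was higher and 1 lower in Pax7KR. Of the 8 glial markers 1 was lower at that level, and the other marker lists had 0, beside 4.68% of all genes tested. None of these markers passed the adjusted test, all of the summed ranges overlapped, and the part of other cells in the Hox levels was not tested. In bulk RNA, fewer cells of a type and less RNA per cell cannot be told apart.

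The Hox code of these cells was one of the HoxA and HoxC clusters (cluster shares are of the summed Hox TPM, with the mean and range of 6 libraries). HoxC held 50.6% (48.5% to 52.1%), HoxA 44.0% (42.0% to 46.0%), HoxD 4.71% (4.22% to 5.23%) and HoxB 0.684% (0.485% to 0.955%). The HoxC sum was above the HoxA sum in each library, with a ratio of 1.22, 1.05 and 1.12 in Pax7WT and 1.13, 1.24 and 1.15 in Pax7KR. The cluster shares of the genotypes overlapped for all 4 clusters. The summed HoxA level itself did not, at 179.7 to 182.7 TPM in Pax7WT and 189.8 to 192.0 TPM in Pax7KR. The sums of HoxB, HoxC and HoxD overlapped. No sum was tested, and TPM lack the TMM normalization used for the fold changes below. In Pax7WT, HoxC held 50.2% ± 1.81 and HoxA 44.4% ± 1.68 (SD, n = 3), and in Pax7KR HoxC held 51.1% ± 0.866 and HoxA 43.6% ± 1.39.

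**Figure D1:**
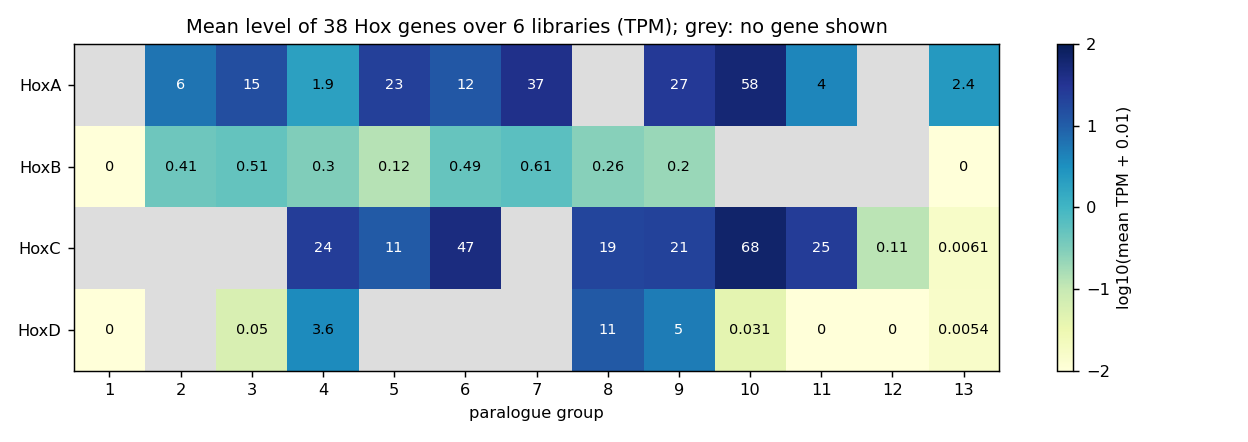
Mean level of 38 Hox genes over 6 libraries, in TPM, by cluster (rows) and paralogue group (columns), with colour on the log10(TPM + 0.01) scale and grey where no gene is shown. The darkest cells are in the HoxA and HoxC rows, with 68 TPM for Hoxc10 and 58 TPM for Hoxa10. The highest HoxD gene, Hoxd8, is at 11 TPM, while each HoxB gene is below 1 TPM.

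Most of the code was carried by few genes. The 14 genes with a mean of 10 TPM or more held 93.8% of the Hox TPM, 6 of them in HoxA, 7 in HoxC, 1 in HoxD and 0 in HoxB. A further 6 genes were between 1 and 10 TPM, 14 had at least 1 read but less than 1 TPM, and 5 had no read in any library. By paralogue group, group 10 alone held 29.7% of the Hox TPM (28.2% to 31.1%). Groups 9 to 13, the posterior genes, held 49.7% (47.5% to 51.5%). Groups 4 to 8, the genes of the neck and trunk, held 44.9% (43.4% to 47.3%). Groups 1 to 3, the genes of the hindbrain and neck, held 5.36% (4.54% to 6.05%). The summed level of groups 4 to 8 was 176.1 to 185.8 TPM in Pax7WT and 189.3 to 216.3 TPM in Pax7KR, with genotypes apart and no test. The sums of groups 1 to 3 and of groups 9 to 13 overlapped.

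Hoxc10, a posterior gene that is known for its expression in hindlimb and lumbar regions, was the highest of the 39, with 73.2, 59.7 and 69.7 TPM in Pax7WT and 66.2, 69.8 and 66.9 TPM in Pax7KR. Hoxa10, its paralogue and a gene of the proximal limb, followed with 59.9, 54.6 and 55.3 TPM in Pax7WT and 58.5, 59.2 and 60.7 TPM in Pax7KR. The Hoxa10 level is a sum in which the processed transcript Hoxa10-203 held a mean of 26.6 TPM. The ranges of the 2 genes overlapped over the libraries, but within each of the 6 libraries Hoxc10 was above Hoxa10. The next in order were Hoxc6 (46.6 TPM ± 6.16, SD over 6 libraries) and Hoxa7 (36.6 TPM ± 3.02), 2 genes of the thoracic region, whose ranges of 41.6 to 58.0 and 33.1 to 39.9 TPM did not overlap. Hoxa9 (27.1 TPM ± 3.17), Hoxc11 (25.1 TPM ± 4.27), Hoxc4 (24.0 TPM ± 2.18), Hoxa5 (22.5 TPM ± 1.87), Hoxc9 (20.9 TPM ± 1.00) and Hoxc8 (19.2 TPM ± 1.69) formed a run in which no gene stood clear of its neighbours beyond their spread. Hoxa3 (15.4 TPM), Hoxa6 (11.8 TPM), Hoxd8 (11.2 TPM) and Hoxc5 (11.1 TPM) closed the group of higher genes. The place of Hoxc5 in it rests on the processed transcript Hoxc5-202 (104 reads, 2.65 TPM), which starts within Hoxc10. That transcript had no read in Pax7WT libraries 2 and 3 and Pax7KR library 1. The coding Hoxc5-201 was at 8.45 TPM.

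The third member of group 10 was close to silent in the same cells. Hoxd10, which acts with Hoxa10 and Hoxc10 in hindlimb patterning, had 1, 1 and 2 reads in Pax7WT and no read in Pax7KR, 4 reads in all and a mean of 0.0308 TPM. For a gene with a count of 0, an expected count of up to 3 reads over the 6 libraries, or 0.0225 CPM (counts scaled to library size), would remain possible. Hoxd10 did not reach the filter of 5 reads in 2 libraries, so no fold change is given. Its neighbour Hoxd9 had 153, 91 and 92 reads in Pax7WT and 111, 139 and 115 reads in Pax7KR (5.03 TPM ± 0.516). By their RefSeq starts the 2 genes lie 5872 bases apart. The border in HoxD between a gene with 91 reads or more and genes with 2 or fewer lay between them in each library. Beyond it, Hoxd11 and Hoxd12 had no read and Hoxd13 had 1.

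A border of the same kind lay at the 5′ side of Hoxc11. Hoxc11, a gene of the hindlimb and lumbosacral region, had 835, 356 and 521 reads in Pax7WT and 667, 753 and 564 in Pax7KR, whereas Hoxc12 had 1, 0 and 1 and 4, 1 and 0, and Hoxc13 had 1 read in all. Between them lies Hotair, a noncoding RNA of the HoxC cluster (chr15:102944062-102947730), which was read at 14.6 TPM. HoxA had no such border, and its level fell in steps from Hoxa10 (58.0 TPM) to Hoxa11 (4.002 TPM), a gene of the lower limb, and Hoxa13 (2.43 TPM, 330 reads), a gene of hands and feet. Of the other members of group 13, Hoxb13 had no read and Hoxc13 and Hoxd13 had 1 each.

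**Figure D2:**
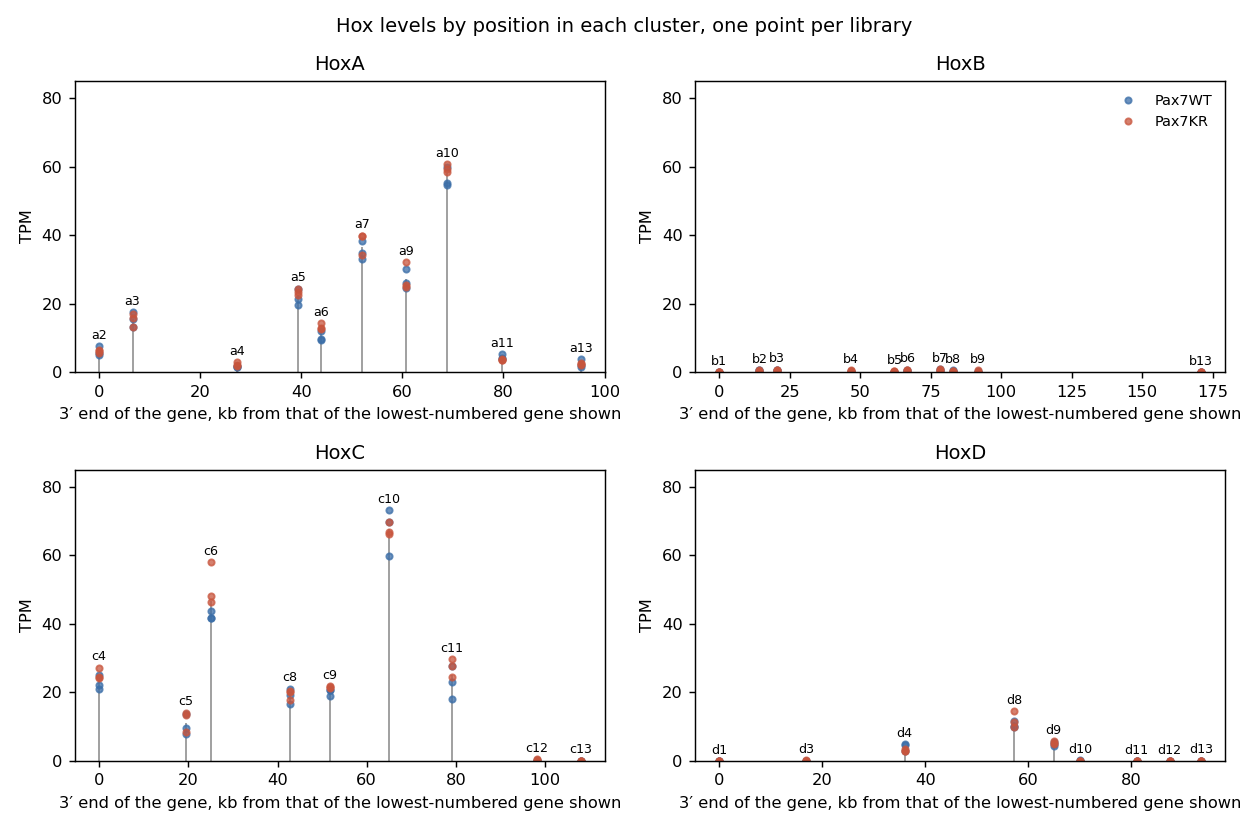
Level of 38 Hox genes (TPM, linear axis) against the position of its 3′ end in the cluster (kb from that of the lowest-numbered gene shown), with one point per library, Pax7WT in blue and Pax7KR in red, and a grey line to the mean. Summed over transcripts, HoxA and HoxC are highest at group 10, with 58.0 and 67.6 TPM. Of the Hoxa10 level, 26.6 TPM was on the processed transcript Hoxa10-203. HoxC ends after c11 and HoxD after d9, and the points of the genotypes lie together.

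To show the sequence on both sides of the HoxD border, the stretch upstream of each gene's start was taken from the RefSeq windows on GRCm38.p6, + strand, 5′ to 3′, with any TAAT, on either strand, in capitals. The window has 250 bases, and that of Hoxd9 is printed up to the start that GENCODE gives, which leaves 214.
Hoxd9, read, chr2:74697513-74697726: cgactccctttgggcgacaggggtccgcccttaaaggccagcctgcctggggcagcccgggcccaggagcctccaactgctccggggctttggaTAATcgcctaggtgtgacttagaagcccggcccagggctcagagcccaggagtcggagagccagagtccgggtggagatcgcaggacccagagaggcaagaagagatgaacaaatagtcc
Hoxd10, close to 0, chr2:74691641-74691890: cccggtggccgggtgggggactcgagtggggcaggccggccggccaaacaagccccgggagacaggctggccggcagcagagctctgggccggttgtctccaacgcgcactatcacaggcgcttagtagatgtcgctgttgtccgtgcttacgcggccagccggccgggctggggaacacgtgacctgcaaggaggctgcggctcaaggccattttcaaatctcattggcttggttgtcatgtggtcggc
The Hoxd9 window held 1 TAAT and the Hoxd10 window none. Both were rich in G and C, with 65.2% and 65.6%, and held 13 and 20 CG pairs. Windows were given for 22 of the 39 genes (24 windows), of which 18 held TAAT (75%), against 54.9% of all 32851 windows. Of HoxC only Hoxc4 had a window, and of HoxB only Hoxb1, Hoxb4 and Hoxb8. The shares therefore describe mainly HoxA and HoxD and leave out Hoxc10, Hoxc6 and Hoxc11. TAATTA, which contains TAAT, was in 2 of the 24 (8.33%) against 4.84% of all windows. The spaced pairs TAATNNATTA and TAATNNNATTA, which also contain TAAT, were in 0 of the 24, against 0.384% and 0.463% of all windows. The Hox windows had a median GC content of 58.6% and 12.5 CG pairs, against 52.4% and 6 over all windows. A match describes the letters only, and the windows leave out the distant enhancers through which Hox clusters are largely controlled.

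The paralogues of a group did not share a level. In group 9, Hoxa9 (27.1 TPM), Hoxc9 (20.9 TPM), Hoxd9 (5.03 TPM) and Hoxb9 (0.198 TPM) stood in that order. The ranges of Hoxa9 (24.5 to 32.1 TPM) and Hoxc9 (19.1 to 21.8 TPM) did not overlap. The place of Hoxa9 above Hoxc9 rests on the sum over its transcripts. Hoxa9-201 held 77.25% of its reads at 12.6 TPM, below Hoxc9. Hoxa9-202 (413 reads) and the processed transcript Hoxa9-203 (188 reads) added 8.05 and 4.63 TPM. In group 4, Hoxc4 (24.0 TPM) was above Hoxd4 (3.61 TPM), Hoxa4 (1.92 TPM) and Hoxb4 (0.297 TPM). In group 3, Hoxa3 was at 15.4 TPM while Hoxb3 was at 0.510 TPM and Hoxd3 had 9 reads, 8 of them in Pax7KR library 3. Hoxa2 (5.98 TPM), a gene of the hindbrain, had 86 to 203 reads. In HoxB, the 8 genes with a read had 18 to 105 reads each over the 6 libraries, and Hoxb1 and Hoxb13 had none.

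Several of these values rest on transcripts that overlap others. Of the 31-base words of Hoxd3 and Hoxd4, 61.2% and 49.1% occur in other genes, most of them in Gm28230, an annotated transcript that reads through both and that held 121 reads. For Hoxb3, 52.7% of the words were shared, nearly all with the noncoding Hoxb3os, for Hoxa11 33.9%, all with the antisense Hoxa11os, and for Hoxa3 26.0%. The kit keeps the strand of the RNA, but whether the quantification used it is not given in the sources used here, so reads of a gene and of its antisense partner may be divided in error. Of the genes with the highest levels, Hoxa10 and Hoxc11 shared no word, and Hoxc6, Hoxc4 and Hoxa5 shared 0.126%, 0.234% and 0.108%. Hoxa7, the fourth highest, shared 20.5%, most of it (19.4% of its words) with the noncoding Hoxaas3.

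Transcript choice within a gene also varied. All reads of Hoxc9 were on 1 of its 2 annotated transcripts, and Hoxc10 and Hoxc11 have 1 each. The reads of Hoxa10 were divided between Hoxa10-202 (43.0%), the processed transcript Hoxa10-203 (41.2%) and the second coding transcript Hoxa10-201 (15.7%). These stood at 19.6, 26.6 and 11.8 TPM, each below Hoxc6-201 (33.5 TPM) and Hoxa7-201 (26.7 TPM). The second place of Hoxa10 thus rests on the sum over its transcripts, the processed one included. Hoxc8 was divided between the coding transcript (49.2%) and a transcript with a retained intron (50.8%). In Hoxc6, the coding Hoxc6-201 was at 33.5 TPM, and the processed transcripts Hoxc6-202 (452 reads) and Hoxc6-203 (148 reads) added 7.61 and 5.50 TPM. In Hoxa7, Hoxa7-201 was at 26.7 TPM, and Hoxa7-204 (160 reads) added 5.24 TPM. Of the Hoxa3 reads, 83.6% were given to Hoxa3-201, whose annotated start at base 52213115 of chromosome 6 lies upstream of Hoxa5 and Hoxa6. These shares are estimates from overlapping transcripts and were not tested between genotypes.

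Between the genotypes, none of the Hox genes passed the test. Of the 39 genes, 28 passed the filter of 5 reads in 2 libraries, and 0 of the 28 had an adjusted p under 0.1 by edgeR, against 0 of 17152 genes (0%), where the smallest adjusted p was 0.302. At an unadjusted p under 0.05 there were 0 Hox genes by edgeR, DESeq2 or limma-voom. Over all genes tested there were 803 by edgeR (4.68%, with 2.26% higher and 2.43% lower in Pax7KR), 683 by DESeq2 and 841 by limma-voom. By edgeR the smallest unadjusted p of a Hox gene was 0.109, for Hoxa11, with an edgeR adjusted p of 0.992. Of the 28, 16 were higher and 12 lower in Pax7KR, with a median log2 fold change of 0.04 against -0.004 over all genes tested. With 3 libraries a group, the exact permutation test of a single value cannot give a two-sided p below 0.10, so no such test was run. The edgeR p-values rest on a modelled spread between these libraries, estimated with the help of all genes tested.

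**Figure D3:**
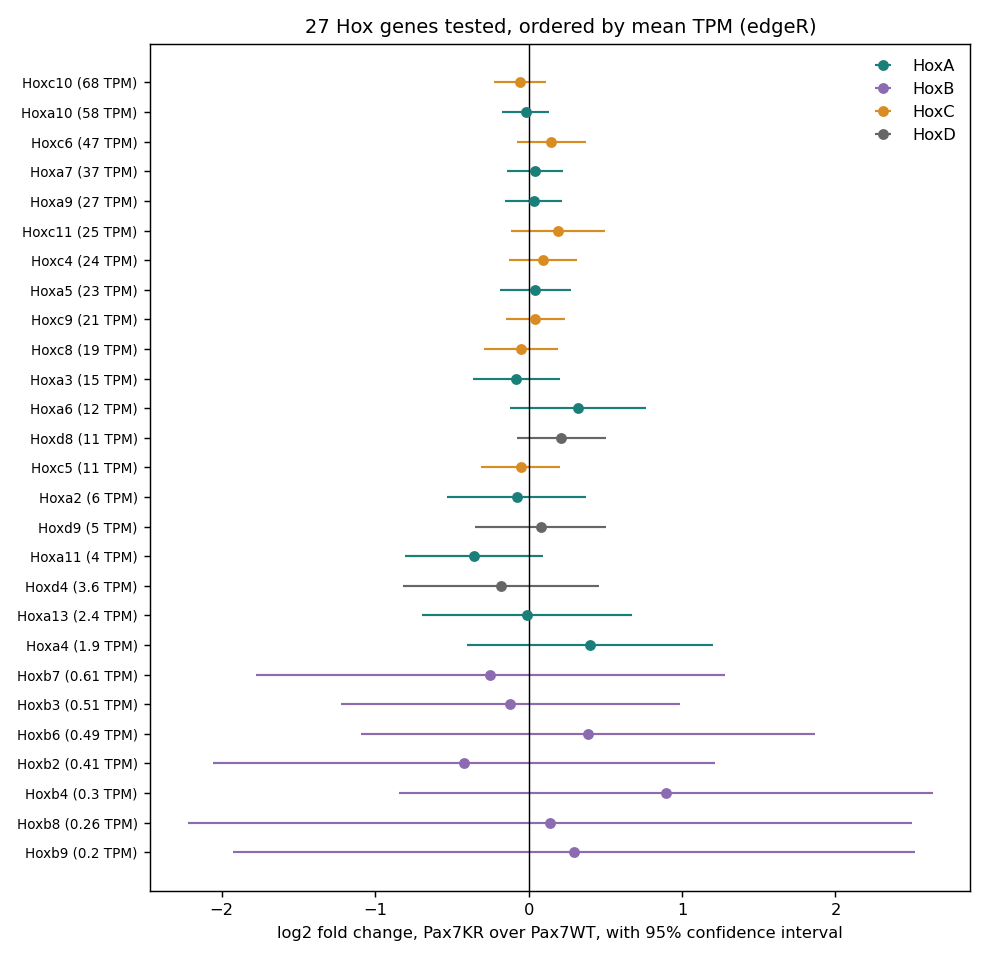
Log2 fold change of 27 of the 28 Hox genes tested, Pax7KR over Pax7WT, with 95% confidence intervals from edgeR, ordered by mean TPM and coloured by cluster. Each interval includes 0, the intervals of 12 of the 14 higher genes stay within 0.5 of it, and those of the HoxB genes are the widest, with SEs of up to 1.09.

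The intervals show how large a difference could have been missed. Among the 14 genes of 10 TPM or more, 9 were higher and 5 lower, the median log2 fold change was 0.04, and SEs ran from 0.07 to 0.21. For 12 of the 14, the 95% confidence interval lay within 0.5 of 0 on the log2 scale, the exceptions being Hoxa6 and Hoxd8. For Hoxc10, it ran from -0.22 to 0.11, and for Hoxa10 from -0.17 to 0.13. For the 8 tested genes under 1 TPM, SEs were 0.51 to 1.09, and each interval reached past 1 on at least one side, so that changes of that size were not detectable at this depth. Over all 28, the interval lay within 1 of 0 for 19. The biological coefficient of variation, the spread between libraries beyond counting, had a median of 12.9% over all genes tested. It was below that for 13 of the 14 higher Hox genes, at 7.7% to 12.7%, the exception being Hoxa6 (18.8%). For the 14 tested Hox genes under 10 TPM the median was 43.3%, which brought the median of the 28 to 18.5%.

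Values in each library are given as CPM normalized by TMM, which compare a gene between libraries and not genes with each other. In 2 of the 28 genes the groups did not overlap, 1 in each direction, beside 10.3% of all genes tested (5.14% higher and 5.19% lower in Pax7KR). Hoxa6, a gene of the thoracic region, had 3.93, 5.14 and 4.05 CPM in Pax7WT and 5.20, 5.82 and 5.30 CPM in Pax7KR. Its lowest Pax7KR value was just above Pax7WT library 2, while the other Pax7WT libraries stood lower (log2 fold change 0.32, SE 0.21, edgeR adjusted p = 0.992). Leaving out 1 library at a time gave 0.25 to 0.45.

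Hoxa11, which patterns the lower limb, had 6.73, 4.91 and 5.12 CPM in Pax7WT and 4.55, 4.23 and 4.35 CPM in Pax7KR. The Pax7KR libraries lay close together and below, and Pax7WT library 1 was the highest of all (log2 fold change -0.36, SE 0.21, edgeR adjusted p = 0.992). Without that library the log2 fold change was -0.20. Hoxa11os, its antisense partner, was at 9.61, 10.4 and 16.5 TPM in Pax7WT and 11.5, 12.7 and 10.02 TPM in Pax7KR, so that the antisense gene did not show the same order.

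The posterior genes of the highest level overlapped between genotypes. Hoxc10 had 79.1, 64.5 and 74.7 CPM in Pax7WT and 67.9, 71.3 and 71.1 CPM in Pax7KR. All Pax7KR values lay within the range of Pax7WT (log2 fold change -0.06, SE 0.08). Hoxa10 had 62.5, 58.1 and 56.6 CPM in Pax7WT and 57.3, 56.3 and 61.3 CPM in Pax7KR, again with nearly the same range (-0.02, SE 0.07). Hoxc11 had 30.7, 20.1 and 25.4 CPM in Pax7WT and 29.2, 31.5 and 26.7 CPM in Pax7KR. Its Pax7KR values stood in the upper part of a broad Pax7WT range or just above it (0.19, SE 0.14, edgeR adjusted p = 0.992). Without Pax7WT library 1 its log2 fold change was 0.36 (edgeR adjusted p = 0.977), the single case of a Hox gene with an unadjusted p under 0.05 in any alternative, and without Pax7WT library 2 it was 0.05.

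The higher genes of group 9, which mark the step from trunk to hindlimb levels, overlapped as well. Hoxa9 had 30.0, 30.8 and 27.4 CPM in Pax7WT and 30.3, 30.1 and 29.9 CPM in Pax7KR (log2 fold change 0.03, SE 0.09). Hoxc9 had 27.0, 27.4 and 24.9 CPM in Pax7WT and 26.9, 26.8 and 28.04 CPM in Pax7KR (0.04, SE 0.09). In both genes 2 Pax7WT libraries and all Pax7KR libraries were alike, and Pax7WT library 3 was the lowest. Hoxd9 had a log2 fold change of 0.08 (SE 0.20). For Hoxb9, with 37 reads in all, it was 0.30 (SE 1.03), with a 95% confidence interval from -1.93 to 2.52, which spans large changes in either direction.

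The genes of groups 4 to 8, which pattern the neck and trunk, overlapped as well except for Hoxa6. Hoxc4 had 28.1, 24.0 and 24.9 CPM in Pax7WT and 26.1, 26.1 and 30.2 CPM in Pax7KR (log2 fold change 0.09, SE 0.10). Hoxa5 had 18.9, 20.7 and 23.8 CPM in Pax7WT and 22.2, 21.7 and 21.5 CPM in Pax7KR (0.04, SE 0.11). For both, the means differed by less than the SD of Pax7WT. Hoxc6 had 30.2, 32.4 and 28.4 CPM in Pax7WT and 31.9, 38.5 and 30.3 CPM in Pax7KR, with Pax7KR library 2 above the rest (0.15, SE 0.10). Hoxa7 had 33.6, 33.0 and 30.99 CPM in Pax7WT and 31.1, 34.6 and 34.8 CPM in Pax7KR (0.04, SE 0.09). Hoxc8 had 24.5, 22.2 and 19.7 CPM in Pax7WT and 19.5, 22.2 and 22.6 CPM in Pax7KR (-0.05, SE 0.11). None of these 5 genes had groups apart.

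**Figure D4:**
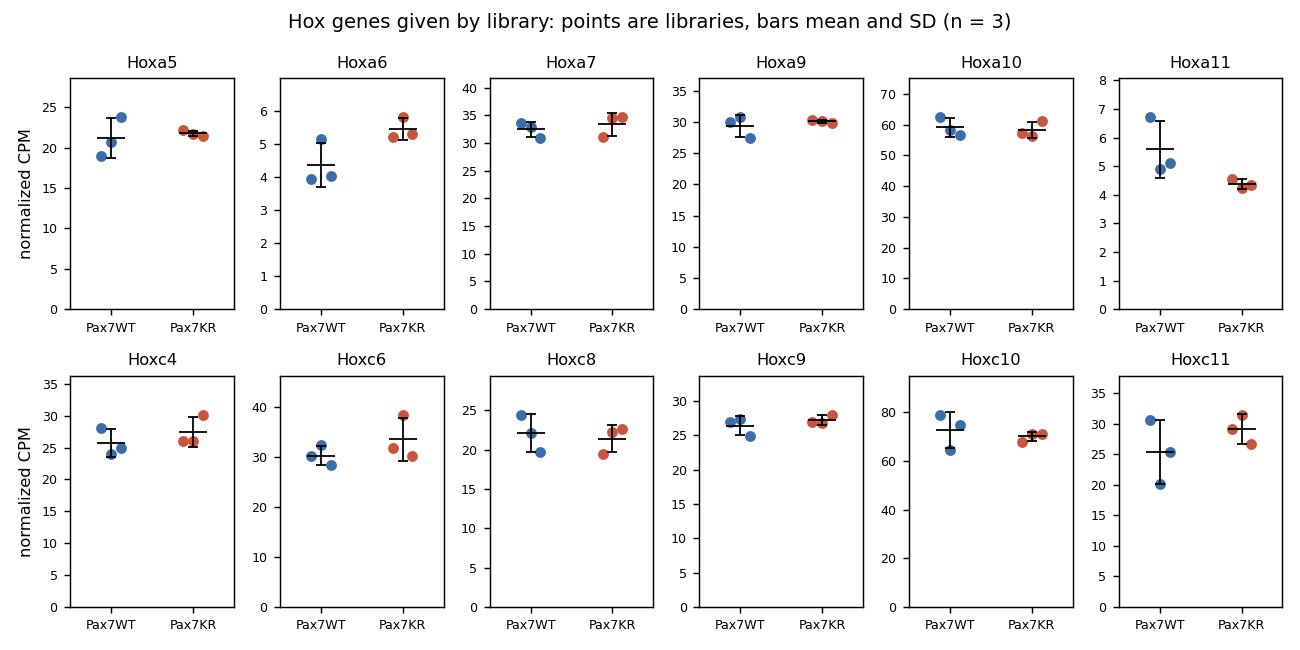
Normalized CPM (TMM) of the 12 Hox genes given by library, with points for libraries and bars for the mean and SD of 3 libraries, each axis starting at 0. Hoxa6 is the one panel with all Pax7KR points above the Pax7WT points and Hoxa11 the one with all below, and the other 10 overlap.

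The remaining 16 tested genes had log2 fold changes from -0.42 (Hoxb2) to 0.90 (Hoxb4), and the groups overlapped in all 16. The lowest unadjusted p among them was that of Hoxd8 (log2 fold change 0.21, SE 0.14, edgeR adjusted p = 0.992), a gene of the trunk. Hoxb4 and Hoxb2, the extremes, had 53 and 47 reads over the 6 libraries and SEs of 0.81 and 0.76. The 11 genes not tested were Hoxb1, Hoxb13, Hoxd1, Hoxd11 and Hoxd12, at 0 in every library, and Hoxb5, Hoxc12, Hoxc13, Hoxd3, Hoxd10 and Hoxd13, with at most 8 reads in a library.

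Noncoding genes of the clusters were taken from a list of 21, of which 16 were in the annotation and 8 tested, 5 higher and 3 lower in Pax7KR, and 0 had an adjusted p under 0.1. The microRNA genes on the list were listed at 0, and such short RNAs are not expected in libraries of this kind. Hoxd3os1, a noncoding gene antisense to the start of Hoxd3 (chr2:74703248-74716130, - strand), had 10, 9 and 7 reads in Pax7WT and 26, 23 and 23 reads in Pax7KR. The groups did not overlap and the Pax7KR values were the higher (1.39 on the log2 scale, SE 0.49, edgeR adjusted p = 0.992), so the difference did not pass. It was the 1 gene of the 8 with an unadjusted p under 0.05, beside 4.68% of all genes, and stayed under it in the 15 alternatives that tested it. Of the 8 it was also the 1 with groups apart, beside 10.3% of all genes tested. With at least 10 reads asked of every library it was not tested. The difference rests on 98 reads, of which part cannot be assigned with certainty, since 11.3% of its 31-base words are shared with Hoxd3. Gm28230, the readthrough transcript of Hoxd4 and Hoxd3, had 25, 3 and 12 reads in Pax7WT and 26, 35 and 20 in Pax7KR (1.04, SE 0.54, edgeR adjusted p = 0.992), and was looked at after its overlap was seen. Hoxd8, which lies within the span of Hoxd3os1 on the other strand and shares no word with it, had overlapping groups. Hotair had 466, 265 and 319 reads in Pax7WT and 386, 400 and 334 in Pax7KR (log2 fold change 0.05, SE 0.11) and shared no word with a Hox gene.

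Of 24 genes of limb position and limb muscle precursors, 14 were tested, 3 higher and 11 lower in Pax7KR with a median log2 fold change of -0.12, and 0 had an adjusted p under 0.1. Tbx4, the T-box gene of the hindlimb, was at 26.4, 25.7 and 25.1 TPM in Pax7WT and 24.0, 24.1 and 23.2 TPM in Pax7KR, whereas Tbx5, its forelimb counterpart, had no read in any library. Muscle of the hindlimb is the labelled source. Pitx1, which acts upstream of Tbx4 in the hindlimb bud, had 2 reads in 1 Pax7WT library and 5 in 1 Pax7KR library. The Tbx4 groups did not overlap in CPM (log2 fold change -0.18, SE 0.07, edgeR adjusted p = 0.992). Its unadjusted p was under 0.05 by edgeR and over it in 8 of 16 alternatives, DESeq2 among them. Pax3, the paralogue of Pax7 in migrating muscle precursors, had 483, 256 and 319 reads in Pax7WT and 290, 307 and 290 in Pax7KR with groups apart in CPM, and was the second of the 14 with an unadjusted p under 0.05 (log2 fold change -0.29, SE 0.12, edgeR adjusted p = 0.992). Over all genes, 2.43% were lower at that level. Tbx4 and Pax3 were the 2 of the 14 with groups apart, beside 5.19% of all genes tested with Pax7KR lower. The Pax3 p was over 0.05 in 6 of 16 alternatives, DESeq2 and the omission of Pax7WT library 1 among them, the latter with a log2 fold change of -0.20. Lbx1, a homeobox gene of migrating limb muscle precursors, was the highest of the list, with 56.3 to 65.9 TPM in Pax7WT and 58.0 to 61.3 TPM in Pax7KR.

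**Figure D5:**
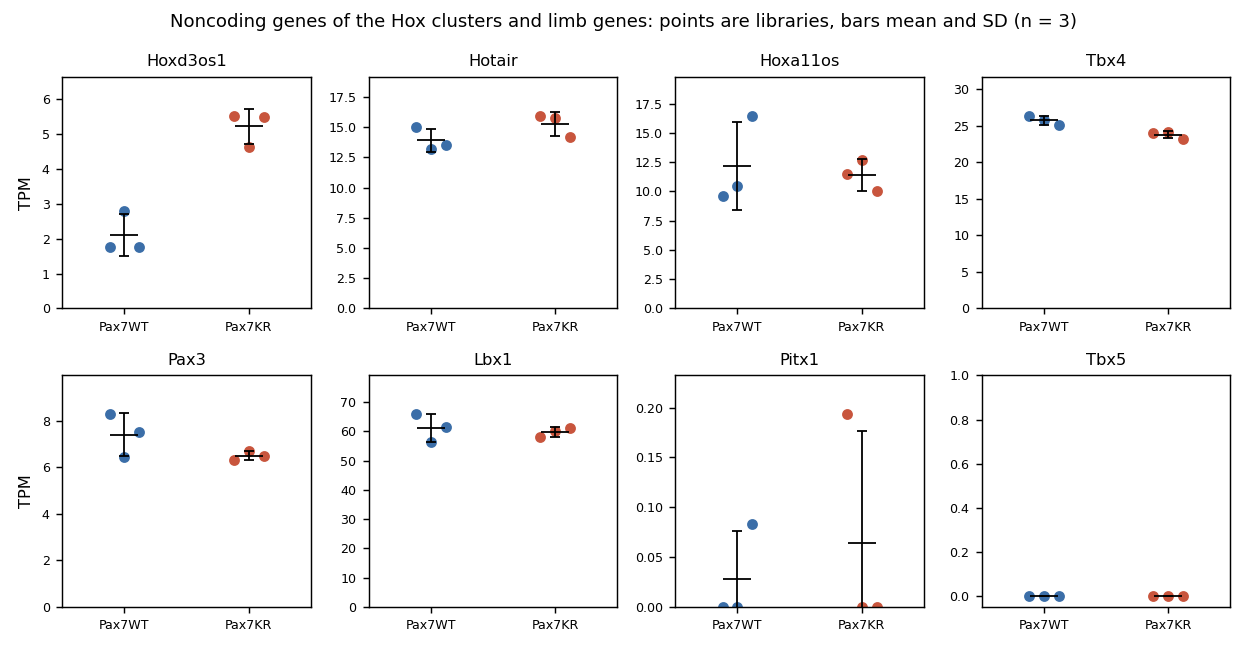
TPM of 3 noncoding genes of the Hox clusters and 5 limb genes, with points for libraries and bars for the mean and SD of 3 libraries. Hoxd3os1 (26, 23 and 23 against 10, 9 and 7 reads) and Tbx4 separate the genotypes, Pitx1 is read in 2 libraries and Tbx5 in none.

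Genes of the TALE homeodomain class and genes for proteins that act on Hox chromatin were read in these cells too. All 11 listed genes of the TALE class, which includes partners of HOX proteins on DNA, were tested, 3 higher and 8 lower in Pax7KR. Among them Tgif1 was at 85.2 TPM and Pknox1 at 49.7 TPM, and membership of the class alone does not make a gene a HOX partner. The summed level of the 11 was 260 to 275 TPM in Pax7WT and 261 to 276 TPM in Pax7KR. All 29 genes of the Polycomb complexes, which keep Hox genes silent, were tested, 11 higher and 18 lower, led by Cbx7 (115 TPM), Ezh1 (86.6 TPM) and Ring1 (69.9 TPM). Their summed TPM was 1051 to 1123 in Pax7WT and 1126 to 1151 in Pax7KR, so that the groups were apart by a narrow gap. The sum was not tested and is not normalized by TMM, whose factors were 0.981 to 1 in Pax7WT and 0.999 to 1.02 in Pax7KR. In the normalized fit the median log2 fold change of the 29 was -0.03. Ezh1, a histone methyltransferase of resting cells, was the 1 member of 29 with an unadjusted p under 0.05, against 4.68% of all genes, at 76.6, 81.0 and 80.9 TPM in Pax7WT and 89.2, 101 and 91.2 TPM in Pax7KR (log2 fold change 0.14, SE 0.06, edgeR adjusted p = 0.992). The p was over 0.05 in 6 of 16 alternatives, which were DESeq2, the replicate block and the omission of Pax7WT library 1 or 2 or of Pax7KR library 1 or 2. Of the 14 Trithorax genes, which keep Hox genes active, 8 were higher and 6 lower. None of the 3 lists had a gene with an adjusted p under 0.1. The ParaHox and Evx genes, the nearest relatives of the Hox genes outside the clusters or at their ends, were at 0 in 7 of 8 cases, and Evx2, beside Hoxd13, had 5 reads.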

How the data were processed

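RNA-seq reads of satellite cells were quantified by the authors with Salmon (version 1.3.0, per the labels) against GENCODE transcripts of GRCm38 with the genome as decoy. The authors deposited estimated counts per transcript, which are not normalized, and TPM values scaled to effective length, which are used here for levels. A table by the authors with log2 fold changes and p-values of their own comparison was not used. Estimated counts were summed per gene and rounded. Of 140992 transcripts, 139791 were matched to genes of an older GENCODE release for GRCm38, and the rest held 0.592% to 0.634% of the reads. The 17152 genes reaching 5 reads in at least 2 libraries were compared between genotypes with edgeR (version 4.0.16, TMM, robust quasi-likelihood test, Benjamini-Hochberg adjustment over all genes tested, cut-off 0.1). DESeq2 (version 1.42.0), limma-voom (limma version 3.58.1), other normalizations, filters, length corrections and the omission of single libraries were alternatives, run in R (version 4.3.3), and other steps in Python (version 3.11.15). The code was tested on simulated data. No pair of libraries agreed within sampling noise. The members and gene lists were chosen with earlier results of these data known. Values in each library are given for the 10 Hox genes of highest mean TPM and for members with an unadjusted p under 0.05 or groups apart in CPM. Other members are given by range, 1 tested Hox gene is not reported here by name, and list genes by level, p or fixed choice. Reads are not independent molecules, so the limit for a count of 0 covers counting error only.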

Additional observations from a re-analysis of the deposited data

How the results depend on the processing

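The count of Hox genes with an adjusted p under 0.1 was 0 in all 17 alternatives, and the median log2 fold change of the Hox genes tested stayed between 0.008 and 0.063. The count over all genes was 0 and moved to 157 without a filter on low counts, 30 with DESeq2, 45 with DESeq2 and transcript length, 13 with the replicate number as a block, and 1 to 32 without 1 library, the 32 being without Pax7KR library 3. The labels do not say whether replicate numbers pair the samples. Deviations from the group means correlated at 0.005, 0.027 and -0.044 for libraries of the same number. Libraries of different number gave -0.0662 to 0.0593. Such values show no pairing but cannot exclude one, since a shared origin need not shift most genes. The block gave 0 Hox genes. Of 305 single-gene values, 12 changed sign, in 6 genes, none by more than 0.034 from 0. Hoxa9 was at -0.0332 and -0.0328 and Hoxa10 at 0.0096 and 0.00955 with a length offset in edgeR and with length in DESeq2. Leaving out 1 library gave -0.0339 to 0.138 for Hoxa5, -0.0148 to 0.0673 for Hoxa9, -0.055 to 0.024 for Hoxa10, -0.125 to 0.0343 for Hoxc8, -0.134 to 0.00885 for Hoxc10 and -0.111 to 0.00865 for Pax7. The cause was not tested. Cluster shares moved by less than their spread between libraries under the one other length scaling and without any 1 library. Counts limit the HoxB genes, where few reads leave wide intervals, and the 5′ ends of HoxC and HoxD, which could not be tested, and antisense overlap limits Hoxa11, Hoxb3 and Hoxd3os1.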
